A study of Homo sapiens with 4 samples.

Results

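The genes that make and recycle nucleotides were followed after knockdown of SHMT2 in colorectal cancer cells. They were chosen by symbol, as 37 genes of purine, pyrimidine and deoxynucleotide synthesis and salvage among the 26364 rows of the count table, and a gene needed at least 10 counts in at least 2 libraries. All 37 of 37 genes met this minimum, and they were read against the 14024 genes of the table that met it. RNA was sequenced in 4 libraries, 1 for each of SW480 control, SW480 SHMT2 knockdown, SW620 control and SW620 SHMT2 knockdown. SW480 and SW620 are human colorectal adenocarcinoma lines from the same patient, SW480 from the primary tumor and SW620 from a lymph node metastasis. The study lowered SHMT2 with a doxycycline-inducible short hairpin RNA. For the expression profile its controls are described as cells with a control hairpin. Its other experiments compared cells carrying the SHMT2 hairpin without and with doxycycline. The labels give neither the hairpin that was sequenced, nor the time of induction, nor whether doxycycline was added to the controls. If only the knockdown cells received doxycycline, its effect and that of the knockdown cannot be told apart.

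SHMT2, mitochondrial serine hydroxymethyltransferase, splits serine into glycine and a folate-bound one-carbon unit. Formate made from such units feeds the cytosolic folate pool, which supplies carbons to the purine ring and the methyl group of thymidylate. Dividing cells make IMP, the first complete purine nucleotide, and UMP, the first pyrimidine nucleotide, from small precursors. They also salvage free bases and nucleosides, and ribonucleotide reductase turns ribonucleotides into the deoxynucleotides used for DNA. Several enzymes of this last branch, among them thymidylate synthase, thymidine kinase 1 and the small subunit of ribonucleotide reductase, are made mainly around S phase.

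SHMT2 itself was at 277 CPM (counts scaled to one common library total) in SW480 control and 30.9 CPM in SW480 knockdown. In SW620 it was at 688 CPM in the control and 47.6 CPM in the knockdown. The log2 ratio of knockdown to control was -3.15 ± 0.10 in SW480 and -3.85 ± 0.06 in SW620, where the error is the standard error from counting alone. Totals ranged from 5530129 to 13774288 counts per library. The knockdown library held 0.671 times the counts of its control in SW480 and 2.49 times in SW620, so depth and treatment ran in opposite directions in the 2 lines. Of the 10 epithelial markers, EPCAM, CDH1, KRT8, KRT18, KRT19 and CDX2 had 54 counts or more in each library, and the summed level of the 10 was 5400 to 10490 CPM. VIL1 had 1 and 2 counts in SW480 but 2029 and 5105 in SW620, KRT20 had 1 to 15 counts, LGALS4 had 0 to 8, and CDX1 was at 0 throughout. With knockdown, KRT8 and KRT18 fell by 0.34 on the log2 scale each (adjusted p = 0.004064 and 0.005369, edgeR), and CDH1 rose by 0.45 (adjusted p = 0.02105, edgeR). The summed level of leukocyte markers was 0.302 to 1.15 CPM, that of endothelial markers 0.733 to 2.41 CPM and that of fibroblast markers 20.2 to 30.3 CPM, with CD3E at 0. The fibroblast sum came from different genes in the lines. COL1A1 had 203 and 130 counts in SW480 control and knockdown, and 35 and 86 in SW620. LUM had 0 counts in both SW480 libraries, but 107 and 313 in SW620. In bulk RNA, fewer cells with a transcript and less transcript per cell cannot be told apart.

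TK1, TYMS and RRM2 supply thymidylate and deoxynucleotides, and the sequences upstream of their RefSeq starts are shown. Their levels were the ones that lay below control in both lines with the smallest p-values. Each is the 250 bases before the RefSeq start (GRCh38.p14), written 5′ to 3′ on the strand of the gene, with matches to the searched motifs in capitals. The RRM2 sequence lies at chr2:10122489-10122738 on the plus strand, that of TYMS at chr18:657403-657652 on the plus strand and that of TK1 at chr17:78187205-78187454 on the minus strand. The gene positions given further on are from GENCODE, whose outermost starts differ from these RefSeq starts. By them the RRM2 sequence lies inside its gene (10120698 to 10131419), and the TYMS and TK1 sequences reach into theirs.
RRM2: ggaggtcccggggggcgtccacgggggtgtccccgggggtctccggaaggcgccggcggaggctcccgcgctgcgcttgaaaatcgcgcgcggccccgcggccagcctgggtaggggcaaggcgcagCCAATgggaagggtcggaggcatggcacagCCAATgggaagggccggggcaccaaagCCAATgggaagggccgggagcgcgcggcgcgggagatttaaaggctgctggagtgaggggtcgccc
TYMS: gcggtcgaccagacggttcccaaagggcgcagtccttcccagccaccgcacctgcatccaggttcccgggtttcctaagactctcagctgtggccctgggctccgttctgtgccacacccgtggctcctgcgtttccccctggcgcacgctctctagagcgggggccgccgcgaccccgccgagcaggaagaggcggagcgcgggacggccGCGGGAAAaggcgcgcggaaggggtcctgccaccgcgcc
TK1: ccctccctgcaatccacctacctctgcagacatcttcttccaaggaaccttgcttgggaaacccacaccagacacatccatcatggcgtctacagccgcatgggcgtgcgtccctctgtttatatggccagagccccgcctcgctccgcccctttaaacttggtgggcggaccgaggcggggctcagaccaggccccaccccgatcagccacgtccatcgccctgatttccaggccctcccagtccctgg

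The capitals in the RRM2 sequence are 3 copies of CCAAT, which start 123, 93 and 66 bases before the start site. The capitals in the TYMS sequence are 1 copy of TTTCCCGC read on the other strand, GCGGGAAA, 39 bases before the start. The TK1 sequence holds none of the 4 motifs searched, which were TTTGGCGC and TTTCCCGC, forms of the E2F motif, CACGTG, the E-box bound by MYC, and CCAAT. Both strands were searched, over 300 bases from 250 before to 50 after each RefSeq start, and 35 of the 37 genes had such a sequence; ADSL and IMPDH2 had none. One of the E2F forms was present for 3 of 35 genes (8.57%), which were DCK, PRPS2 and TYMS, against 3.72% of 10315 promoters of tested genes. CACGTG was present for 7 of 35, namely PPAT, ATIC, DHODH, DCTPP1, DCK, UCKL1 and NME1, and for 1031 of the 10315. CCAAT was present for 13 of 35 (37.1%), against 36.3% of the promoters of tested genes. Over all 27305 promoters the shares were 2.31% for either E2F form, 7.43% for CACGTG and 35.7% for CCAAT. A match describes the letters only, and a lack of one says only that these letters are not in this window.

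Knockdown was compared with control over both lines, with the cell line as a term in edgeR's quasi-likelihood fit and p-values adjusted by the Benjamini-Hochberg method over all 14024 genes. TK1 alone of the 37 genes fell at an adjusted p under 0.05. Of all genes tested, 1.17% were called lower at this threshold and 0.492% were called higher. None of the 37 was called higher by edgeR or by DESeq2's Wald test, and none was higher in either at the unadjusted threshold of 0.05. DESeq2 gave an adjusted p for 31 of the 37 genes. Among all 4508 genes for which it gave one, 0.466% were called lower and 0.111% higher. At the unadjusted threshold in edgeR, 5 of the 37 (13.5%) lay lower, TK1, TYMS, RRM2, NME1 and UCK2, against 4.91% of all genes lower and 4.15% higher. DESeq2's Wald test gave 3 of the 37 lower at that threshold, TK1, TYMS and RRM2, against 1.27% of all genes lower and 0.449% higher. The fitted log2 fold changes of the 37 ranged from -0.47 to 0.23 with a median of -0.07, beside a median of 0.01 over all genes tested. The design leaves 1 residual degree of freedom, and no label says that the libraries came from separate cultures. That degree of freedom is the disagreement of the 2 lines in their knockdown response. Because it is 1, edgeR draws each gene's spread toward that of other genes. The p-values and fitted standard errors cover only these libraries and do not measure a gene's own spread alone. TK1 had log2 ratios of -0.47 in both lines and a standard error of 0.11. NME1 had ratios of -0.72 and -0.01 and a standard error of 0.13.

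TK1, cytosolic thymidine kinase, phosphorylates salvaged thymidine (chromosome 17, 78174075 to 78187233, minus strand, GRCh38). It was at 308 CPM in SW480 control, 222 CPM in SW480 knockdown, 195 CPM in SW620 control and 141 CPM in SW620 knockdown. Each knockdown library lay below its own control, and SW480 knockdown lay above SW620 control. The log2 ratio was -0.47 ± 0.05 in SW480 and -0.47 ± 0.06 in SW620 (counting error). The fitted log2 fold change was -0.47 ± 0.11 (SE), with an adjusted p of 0.003995 in edgeR's quasi-likelihood test. The adjusted p was 0.0576 when genes needed 50 counts in 2 libraries and 0.0798 in DESeq2's Wald test, so the call ended under both, as it did without the cell line term (adjusted p = 1). Over the 3 other alternatives that kept the cell line term, it ranged from 0.007336 to 0.0272.

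TYMS, thymidylate synthase, methylates dUMP to dTMP with a folate one-carbon unit (chromosome 18, 657604 to 673578, plus strand). Its level was 199.5 CPM in SW480 control and 141 CPM in SW480 knockdown. In SW620 it was 184 CPM in the control and 155 CPM in the knockdown. Both knockdown libraries lay below both controls. The log2 ratio was -0.50 ± 0.06 in SW480 and -0.25 ± 0.06 in SW620 (counting error). The fitted log2 fold change was -0.37 ± 0.12, which did not pass the threshold in edgeR's test (adjusted p = 0.0674). Of the exon length of TYMS, 58.2% overlaps ENOSF1, which is read from the opposite strand, and 6.4% overlaps TYMSOS, also on the opposite strand. Whether the counting used strand is not given in the sources used here, so reads of these genes may not be told apart. Of the 37 genes, 17 overlap another gene in their exons, 13 of them one on the opposite strand, and the overlap of TYMS was the longest share. ENOSF1 had a fitted log2 fold change of -0.26 (adjusted p = 0.406, edgeR) and TYMSOS one of -0.47 (adjusted p = 0.0774, edgeR).

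RRM2, the small subunit of ribonucleotide reductase (chromosome 2, 10120698 to 10131419, plus strand), was at 423 CPM in SW480 control and 325 CPM in SW480 knockdown. In SW620 its level was 266 CPM in the control and 222 CPM in the knockdown. It lay lower in each knockdown library than in its own control, and both SW480 libraries lay above both SW620 libraries. The fitted log2 fold change was -0.32 ± 0.11 (adjusted p = 0.1085, edgeR). RRM1, the large subunit (chromosome 11, 4094707 to 4138876, plus strand), was at 181 CPM and 151 CPM in SW480 control and knockdown. In SW620 it was at 341 CPM and 310 CPM. Here the SW620 libraries were the higher ones, and the fitted log2 fold change on knockdown was -0.20 ± 0.11 (unadjusted p = 0.0701 and adjusted p = 0.617, edgeR).

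The remaining enzymes of deoxynucleotide supply were DTYMK, which makes dTDP from dTMP, DUT, which hydrolyzes dUTP, DCTD, which deaminates dCMP, DCTPP1, a dCTP pyrophosphatase, and SAMHD1, which breaks down dNTPs. Their fitted log2 fold changes ranged from -0.20 for DTYMK to 0.17 for SAMHD1, and none passed the unadjusted threshold. Over all 8 enzymes of this branch, 4 (50%) were lower in both knockdown libraries than in their own controls, against 24.7% of all genes tested. These were RRM1, RRM2, TYMS and DTYMK, of which all but DTYMK are also markers of S phase. SAMHD1 was higher in both (12.5% of the branch), against 27% of all genes tested. The summed level of the branch was 1079 CPM in SW480 control and 885.7 CPM in SW480 knockdown, a difference of -17.9%. In SW620 the sums were 1249 CPM and 1114 CPM, a difference of -10.8%.

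**Figure D1:**
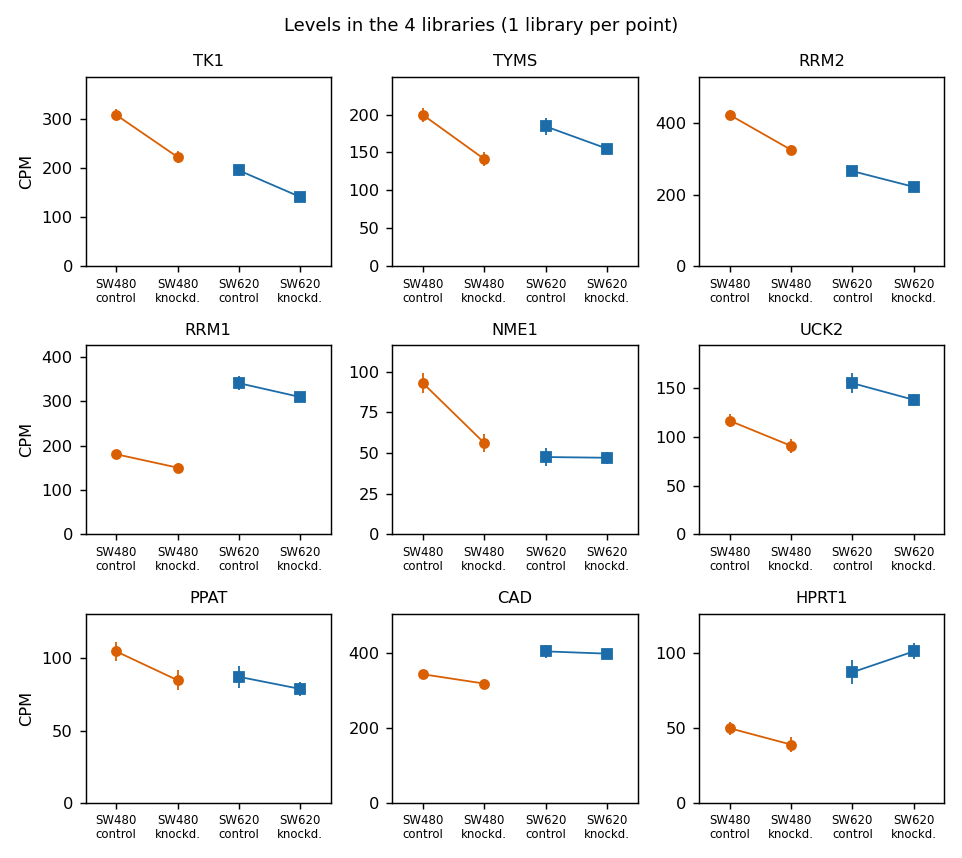
Levels of 9 genes in CPM (vertical axes, from 0) in the 4 libraries (horizontal axis), with a line joining each knockdown library to its control and bars for the 95% interval from counting alone. TK1, TYMS, RRM2, RRM1, UCK2 and PPAT slope down in both lines, NME1 slopes down in SW480 and is level in SW620, and HPRT1 moves in opposite directions.

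NME1, a nucleoside diphosphate kinase that makes triphosphates from diphosphates (chromosome 17, 51153536 to 51162428, plus strand), was at 92.9 CPM in SW480 control and 56.1 CPM in SW480 knockdown. In SW620 it was at 47.5 CPM in the control and 47.1 CPM in the knockdown. SW480 control stood above the other 3 libraries, and the log2 ratio was -0.72 ± 0.09 in SW480 and -0.01 ± 0.11 in SW620 (counting error). The fitted value of -0.38 ± 0.13 (adjusted p = 0.1456, edgeR) therefore averages a difference in one line with almost none in the other. NME1 shares 32.4% of its exon length with the read-through gene NME1-NME2 on the same strand, and its neighbor NME2, a close paralog, had 2 to 10 counts per library, so the split of reads between these genes is uncertain.

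UCK2, a uridine-cytidine kinase (chromosome 1, 165827531 to 165911618, plus strand), was at 116.5 CPM and 90.8 CPM in SW480 control and knockdown. Its level in SW620 was 155 CPM and 138 CPM. Each knockdown library lay below its control, with a fitted log2 fold change of -0.26 ± 0.12 (unadjusted p = 0.0299 and adjusted p = 0.438, edgeR). UCKL1, a related enzyme, had a fitted value of -0.19 and did not pass either threshold.

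HPRT1, which salvages hypoxanthine and guanine (chromosome X, 134460153 to 134520513, plus strand), was at 49.7 CPM in SW480 control and 38.8 CPM in SW480 knockdown. In SW620 it was at 87.1 CPM in the control and 101 CPM in the knockdown. The lines moved in opposite directions, with log2 ratios of -0.36 ± 0.11 and 0.21 ± 0.08 (counting error), and the fitted value was -0.05 ± 0.13 (adjusted p = 0.986, edgeR). Among the other salvage genes, APRT, which salvages adenine, and CMPK1, which phosphorylates CMP and UMP, were higher in both knockdown libraries. CMPK1 had the highest fitted log2 fold change of the 37 genes, 0.23 ± 0.13 (unadjusted p = 0.0668 and adjusted p = 0.611, edgeR). TK2, the mitochondrial thymidine kinase, had log2 ratios of 0.22 ± 0.17 in SW480 and -0.64 ± 0.15 in SW620 on 132 to 242 counts per library. ADK, DCK, MTAP and PNP, which act on adenosine, deoxynucleosides, methylthioadenosine and purine nucleosides, had fitted values from -0.21 to 0.03, and none passed either threshold. The branch of 12 salvage enzymes and kinases summed to 1324 CPM in SW480 control and 1108 CPM in SW480 knockdown, and to 1109 CPM and 1076 CPM in SW620.

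PPAT, the amidotransferase of the first committed step of purine synthesis (chromosome 4, 56393362 to 56435615, minus strand), was at 105 CPM in SW480 control, 84.9 CPM in SW480 knockdown, 87.3 CPM in SW620 control and 78.9 CPM in SW620 knockdown. It lay lower in each knockdown library than in its own control, and the fitted log2 fold change was -0.23 ± 0.13 (unadjusted p = 0.0745 and adjusted p = 0.635, edgeR). PAICS, which acts later in the same pathway, starts 125 bases away in the opposite direction and had log2 ratios of -0.13 ± 0.03 in SW480 and 0.02 ± 0.03 in SW620 (counting error). GART and ATIC carry the folate-dependent steps that add formyl groups to the growing ring. Their fitted log2 fold changes were 0.0014 ± 0.11 for GART and 0.01 ± 0.11 for ATIC, the values nearest to 0 within the 6 enzymes from PRPP to IMP. The sum over these 6 enzymes, which include PFAS and ADSL, was 1239 CPM and 1138 CPM in SW480 control and knockdown, and 1600 CPM and 1633 CPM in SW620. None of the 6 passed either threshold, and only PPAT (16.7%) was lower in both lines, against 24.7% of all genes tested.

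IMPDH2, which commits IMP to guanine nucleotides (chromosome 3, 49024325 to 49029408, minus strand), was at 592 CPM in SW480 control and 533 CPM in SW480 knockdown. In SW620 it was at 408 CPM and 380 CPM. The fitted log2 fold change was -0.13 ± 0.10 (adjusted p = 0.853, edgeR). Its isozyme IMPDH1 had log2 ratios of -0.28 ± 0.06 in SW480 and 0.38 ± 0.07 in SW620 (counting error), so that the ratio of IMPDH2 to IMPDH1, in CPM per kilobase of exon, was 6.76 and 7.38 in SW480 control and knockdown, and 7.85 and 5.62 in SW620. GMPS, which makes GMP, and ADSS, which acts toward AMP, had fitted values of -0.04 and 0.08. PRPS1 and PRPS2, which make the activated ribose PRPP, had fitted values of -0.04 and -0.06. None of these 6 genes passed either threshold.

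CAD, the multifunctional enzyme of the first steps of pyrimidine synthesis (chromosome 2, 27217390 to 27243943, plus strand), was at 342 CPM in SW480 control, 317.5 CPM in SW480 knockdown, 403 CPM in SW620 control and 397 CPM in SW620 knockdown. The knockdown libraries lay within 0.11 log2 units of their controls, and the fitted log2 fold change was -0.07 ± 0.10 (adjusted p = 0.974, edgeR). UMPS, which makes UMP, had a fitted value of -0.23 ± 0.13 (unadjusted p = 0.0866, edgeR), and DHODH, the mitochondrial step before it, one of 0.0006 ± 0.17. CTPS1 and CTPS2 make CTP from UTP. CTPS1 had log2 ratios of -0.32 ± 0.07 in SW480 and 0.0042 ± 0.06 in SW620, and CTPS2 had ratios of 0.25 ± 0.15 and 0.17 ± 0.08 (counting error). Per kilobase, CTPS1 stood at 4.41 and 2.96 times CTPS2 in SW480 control and knockdown, and at 1.87 and 1.67 times in SW620.

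**Figure D2:**
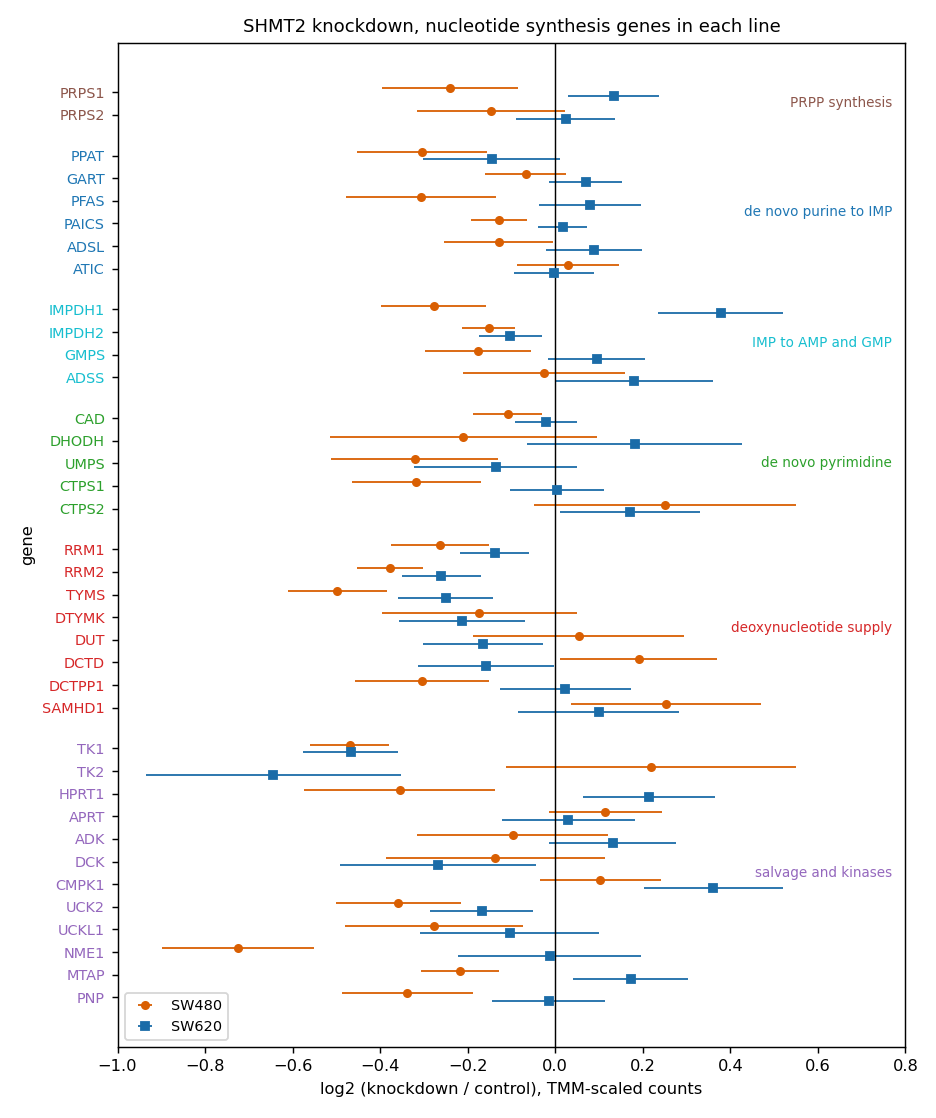
Log2 ratio of knockdown to control (horizontal axis) for each of the 37 genes (vertical axis, grouped by branch), with circles for SW480 and squares for SW620 and bars for the 95% interval from counting alone. Most SW480 points lie left of 0, and the SW620 points lie on both sides. Both points lie left of 0 for 14 genes of several branches, among them TK1, TYMS, RRM2 and RRM1.

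The 2 lines gave different pictures when read separately, with no test because each holds 1 library per condition. In SW480, 29 of the 37 genes (78.4%) were lower in the knockdown library than in the control, against 47.8% of all genes tested. In SW620, 18 of 37 (48.6%) were lower, against 48.6% of all genes. The median log2 ratio of the 37 was -0.18 in SW480 and 0.0042 in SW620, beside medians of 0.005 and 0.0003 over all genes. In both lines, 14 of 37 (37.8%) were lower, against 24.7% of all genes, and 4 of 37 (10.8%) were higher, CTPS2, SAMHD1, APRT and CMPK1, against 27.0%. The summed level of all 37 was 5329 CPM and 4635 CPM in SW480 control and knockdown, a difference of -13.0%, and 5788 CPM and 5697 CPM in SW620, a difference of -1.6%. The sum over all genes tested differed by -2.8% in SW480 and 1% in SW620. Whether the lines differ in their response was not tested, since a fit with that term leaves no residual degrees of freedom.

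**Figure D3:**
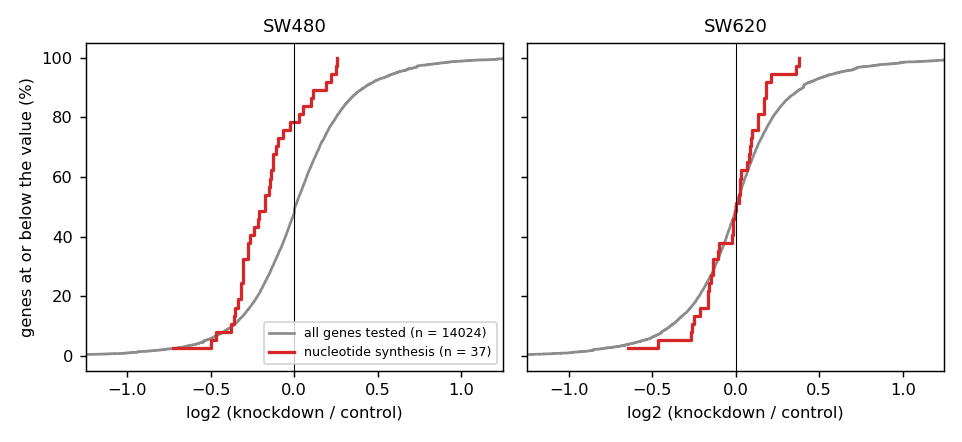
Cumulative share of genes (vertical axis, percent) at or below each log2 ratio of knockdown to control (horizontal axis) in SW480 (left) and SW620 (right), for the 37 nucleotide synthesis genes (red) and all 14024 genes tested (gray). The red curve lies left of the gray one over most of its range in SW480, with medians of -0.18 and 0.005, and crosses it near 0 in SW620.

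By branch, the enzymes from PRPP to IMP summed to -8.2% in SW480 and 2.1% in SW620, those from IMP to AMP and GMP to -10.9% and 2.7%, and those of pyrimidine synthesis to -10.5% and 0.5%. Salvage enzymes and kinases summed to -16.3% and -3.0%. PRPP synthesis stood at -12.8% and 5.9%. All genes tested together stood at -2.8% and 1%. Deoxynucleotide supply was the branch with the most negative value in each line, -17.9% and -10.8%. Most of its sum comes from RRM1, RRM2 and TYMS, which are also markers of S phase. Its share of genes lower in the knockdown library was 62.5% in SW480, the lowest of the 6 branches. In SW620 that share was 75%, the highest of the 6. With that branch and TK1 left out, the other 28 genes had a median log2 ratio of -0.16 in SW480 and 0.03 in SW620, and their sums differed by -10.6% and 2.3%.

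**Figure D4:**
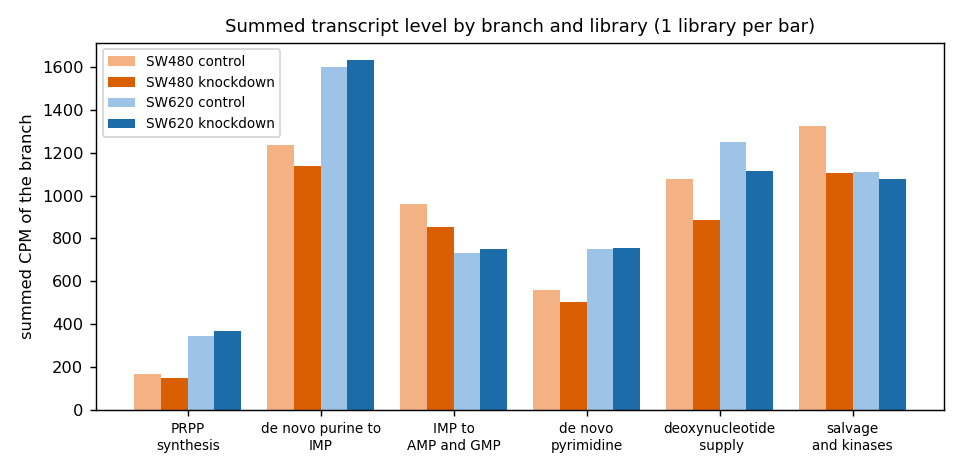
Summed level in CPM (vertical axis, from 0) of each of the 6 branches (horizontal axis) in the 4 libraries, 1 bar per library. The deoxynucleotide supply bars are lower in the knockdown library in both lines, while the sum from PRPP to IMP is lower in SW480 (1239 and 1138 CPM) and slightly higher in SW620 (1600 and 1633 CPM).

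Markers of S phase, a list of 43 genes commonly used to score DNA replication in cells, moved beside these results. The list holds TYMS, RRM1 and RRM2, and its other 40 genes all passed the count minimum. Of these 40, edgeR called 7 (17.5%) lower after adjustment, against 1.17% of all genes tested. In the lower direction 25 (62.5%) passed the unadjusted threshold of 0.05, against 4.91% of all genes. In both lines 37 (92.5%) were lower, against 24.7% of all genes. The 7 were UHRF1, a reader of hemimethylated DNA, with a fitted log2 fold change of -1.76, WDR76 (-0.64), UNG, a uracil-DNA glycosylase (-0.52), CDC6, a replication licensing factor (-0.48), EXO1, an exonuclease (-0.46), ATAD2 (-0.43) and PCNA, the replication clamp (-0.42). None of the 40 was higher at either threshold in edgeR. The summed level of the 40 was 4234 CPM in SW480 control and 3200 CPM in SW480 knockdown, and 5934 CPM and 4834 CPM in SW620. Their median log2 ratio was -0.33 in SW480 and -0.24 in SW620, beside -0.38 and -0.26 for RRM2, -0.50 and -0.25 for TYMS, and -0.47 in both lines for TK1. The part of these markers in the TK1, TYMS and RRM2 values was not tested. The 34 nucleotide genes that are not on the S phase list had medians of -0.16 and 0.02.

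The lines themselves differed in most of these genes. In the same edgeR fit, where each line is represented by its control and its knockdown library, 21 of the 37 genes stood higher in SW620 and 8 stood lower, each with an adjusted p under 0.05. Among all genes tested, 32.3% were higher in SW620 and 31.3% were lower. The median difference between SW620 and SW480 was 0.35 log2 units over the 37 genes, against 0.01 over all genes. DESeq2's Wald test called 14 of the 37 higher and 5 lower, where it called 19.1% and 20.2% of all genes.

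The genes that stood highest in SW620 were CTPS2, with a log2 difference of 1.90 ± 0.14 (SE), DUT with 1.61 ± 0.14, and DTYMK with 1.23 ± 0.13. ADK, PRPS1, PRPS2, HPRT1 and PFAS followed, with differences from 1.09 to 1.20. In de novo purine synthesis 5 of 6 genes and in pyrimidine synthesis 4 of 5 were called higher in SW620, and none in these branches was called lower. The 8 genes called lower in SW620 were MTAP (-1.07 ± 0.12), TK1 (-0.66 ± 0.11), RRM2 (-0.61 ± 0.11), NME1 (-0.60 ± 0.13), IMPDH2 (-0.51 ± 0.10), APRT (-0.44 ± 0.12), IMPDH1 (-0.41 ± 0.12) and CMPK1 (-0.28 ± 0.13). TYMS did not separate the lines, with a difference of 0.01 ± 0.12 (adjusted p = 0.942, edgeR).

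The subunits of ribonucleotide reductase differed between the lines in opposite directions, RRM1 by 0.98 ± 0.11 and RRM2 by -0.61 ± 0.11. Per kilobase of exon, RRM2 stood at 2.03 times RRM1 in SW480 control and 1.88 times in SW480 knockdown. In SW620 the ratio was 0.678 in the control and 0.623 in the knockdown, so the order of the subunits was the reverse of that in SW480. RRM2 shares 27.9% of its exon length with a protein-coding gene on the same strand that has no row in the table, and 3 annotated pseudogenes of RRM2 have none. Thymidine kinases stood at 62.8 and 38.9 for TK1 over TK2 per kilobase in SW480 control and knockdown, and at 24.1 and 27.3 in SW620. PRPS1 over PRPS2 varied little, from 1.27 to 1.37.

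**Figure D5:**
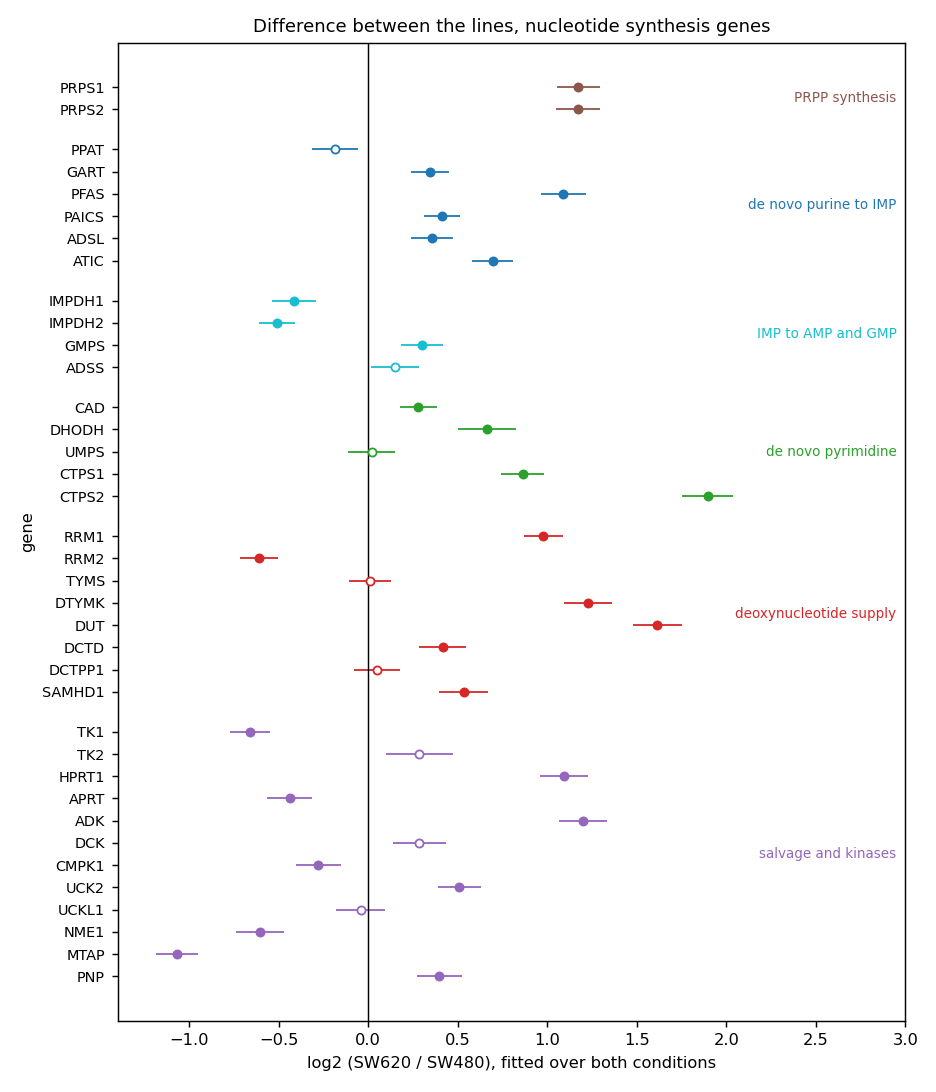
Log2 difference between SW620 and SW480 (horizontal axis) for the 37 genes (vertical axis, grouped by branch) from the fit over both conditions, with bars of 1 standard error and filled points where the adjusted p was under 0.05. Most purine and pyrimidine synthesis genes lie right of 0, CTPS2 lies farthest right at 1.90 and MTAP farthest left at -1.07.

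Between genes, levels were compared per kilobase of exon. IMPDH2 stood first in each library, at 360.2 and 324.2 CPM per kilobase in SW480 control and knockdown, and at 248.4 and 231.3 in SW620. TK1 was the second gene in SW480 control, SW480 knockdown and SW620 control, at 178.3, 128.7 and 112.9 CPM per kilobase. In SW620 knockdown the second place was held by PAICS at 100.5, and TK1 stood at 81.6. TK2 was the lowest of the 37 in each library, at 2.84 to 4.69 CPM per kilobase, and DHODH lay between 4.28 and 7.76. Exon lengths join all annotated exons of a gene and are not those of the transcripts made in these cells. MTAP, with 12935 bases of exon, was at 280.7 CPM but 21.7 CPM per kilobase in SW480 control. The order of genes is therefore uncertain, and not only between near neighbors. The same limit holds for the ratios between isozymes and subunits given above.

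Other genes of nucleotide metabolism gave a background to these 37. Of 62 further kinases, breakdown enzymes and carriers, 47 were tested. After adjustment edgeR called 2 of them (4.26%) lower and none higher, against 1.17% and 0.492% of all genes tested. Without adjustment, 2 (4.26%) passed 0.05 in the lower direction and 4 (8.51%) in the higher, against 4.91% and 4.15% of all genes. The summed level of the 47 differed by -5.9% in SW480 and 1.8% in SW620. By list, kinases and salvage stood at -1% and 1.4%, breakdown enzymes at -12.6% and 1.6%, and carriers at -3.8% and 3.8%. AK3, a mitochondrial adenylate kinase that uses GTP, was at 49.1 CPM and 36.8 CPM in SW480 control and knockdown, and at 70.0 CPM and 42.0 CPM in SW620. Both knockdown libraries lay below both controls, with a fitted log2 fold change of -0.58 ± 0.14 (adjusted p = 0.003023, edgeR). NT5E, the cell surface nucleotidase CD73, was at 222.9 CPM and 135.3 CPM in SW480, and it had 4 and 24 counts in the SW620 libraries. Its fitted log2 fold change of -0.58 ± 0.17 (adjusted p = 0.03646, edgeR) therefore rests on SW480. NT5E alone also makes up most of the SW480 difference of the breakdown enzymes, from 845.3 CPM in the control to 738.6 CPM in the knockdown. The same holds for the sum of the 47 genes, from 2231 to 2100 CPM.

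Of 15 genes that supply folate and formate, 13 were tested, and none passed either the adjusted or the unadjusted threshold in edgeR. SHMT1, the cytosolic counterpart of SHMT2, was at 68.2 CPM and 69.1 CPM in SW480, and at 53.9 CPM and 48.9 CPM in SW620, with no direction shared by the lines.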

How the data were processed

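RNA of SW480 and SW620 cells with SHMT2 knockdown or control was sequenced in 4 libraries (TruSeq kit). The authors deposited 1 table of raw counts per gene symbol, with no normalization. The submitters' processing notes name Bowtie 0.12.2 and hg18, while the counter, its annotation and its strand setting are not given in the sources used here. The study's methods name a microarray, but the values are whole-number counts, with library totals from 5530129 to 13774288. In 28 rows, gene symbols had become dates (0.217% of counts), and they were kept.

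Tests covered genes that reached 10 counts in 2 or more libraries, in R 4.3.3 with edgeR 4.0.16 (TMM scaling, quasi-likelihood test, two-sided, terms for cell line and treatment). Within-line ratios had 2 counts added as a prior and carry counting error only, since each line has 1 library per condition. That error treats reads as independent molecules, which they are not. The cell line pairs each knockdown with its own control, and both SW480 libraries deviated together from their condition means (Pearson r of 0.961 across genes). Alternatives were DESeq2 size factors, other filters on low counts, DESeq2 1.42.0, thinning to the shallowest library, no line term and leaving out a line. The code was tested on simulated data. Positions and exon lengths came from GENCODE 29 (GRCh38) and promoters from RefSeq. Coordinates were not converted from hg18.

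The genes and lists were chosen with earlier results of these data known. Values in all libraries are given for genes that passed 0.05 without adjustment and for PPAT, CAD, IMPDH2, TYMS, RRM1, RRM2, TK1 and HPRT1. Genes of other lists are named at an adjusted p under 0.05, with SHMT2 and SHMT1, and 1 gene of that rule is not reported here. Other names, and the listing by chromosome, were chosen after the values were seen.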

Additional observations from a re-analysis of the deposited data

Results flagged for a closer look

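In 5 of the 37 genes (13.5%) the knockdown library lay on opposite sides of its control in the 2 lines, each time by more than the 95% counting interval. So did 533 of all 14024 genes tested (3.8%). The counting interval narrows as counts rise, and the genes tested include many with fewer counts, so these shares are not a like comparison. PRPS1, which makes PRPP, had a log2 ratio of -0.24 in SW480 and 0.13 in SW620. IMPDH1, the minor IMP dehydrogenase, had ratios of -0.28 in SW480 and 0.38 in SW620. HPRT1, which salvages hypoxanthine and guanine, had ratios of -0.36 and 0.21, and MTAP, which releases adenine from methylthioadenosine, had ratios of -0.22 and 0.17. DCTD, the dCMP deaminase, went the other way, with 0.19 in SW480 and -0.16 in SW620. In all, 19 of the 37 genes (51.4%) had opposite signs in the lines, near the 48.2% of all genes tested. The difference between the lines was not tested, since each condition has 1 library per line.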

How the results depend on the processing

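The count of nucleotide genes lower at an adjusted p under 0.05 was 1 and became 0 when genes needed 50 counts in 2 libraries, in DESeq2's Wald test, and with no cell line term. The count lower without adjustment was 5, and became 3 in DESeq2's Wald test, where the count over all genes was 178 in place of 688, and 0 without the line term, that is, without the pairing of libraries. The count lower in SW620 than in SW480 was 8, and 5 in DESeq2's Wald test, with 2826 in place of 4394 over all genes. Leaving out the libraries of 1 line leaves no test. The median of the 37 fold changes (log2) was then -0.18 with SW480 alone and 0.0042 with SW620 alone, and HPRT1 ranged from -0.36 to 0.21. HPRT1 was at 0.034 without the line term. The common dispersion was 0.00819 with the line term and 0.561 without it. The cause of the changes in DESeq2 and under the stricter filter was not tested. With DESeq2 size factors, with no filter and with thinned libraries, TK1 stayed the 1 gene called. Library totals and DESeq2 size factors in place of TMM within a line, added after seeing the data, gave 28 and 29 genes lower in SW480 and 19 and 17 in SW620.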

Other observations

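All 4 nucleotide genes on the X chromosome, PRPS1, PRPS2, CTPS2 and HPRT1, were higher in SW620 than in SW480, by 1.09 to 1.90 log2 units. The 420 tested genes of the X chromosome had a median difference of 0.67 log2 units, the highest of 23 chromosomes, and edgeR called 64.3% of them higher in SW620 at an adjusted p under 0.05. Chromosome 20 was next, with a median of 0.48 over 366 genes, and it holds SAMHD1 and UCKL1, at 0.53 and -0.04. The listing covers 94.2% of the genes tested, those whose symbol matched 1 chromosome in GENCODE. Copy number was not measured in these libraries, and its part in the line differences was not tested.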
